A study of Mus musculus with 3 samples.

Results

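Igf2, H19, Igf2r, Igf1r, Igfbp4, Cdkn1c, Dlk1, Peg3, Meg3 and Grb10 were followed through single cells of the mouse embryonic lung. These 10 genes, 8 of them imprinted and all tied to fetal growth or insulin-like growth factor (IGF) signalling, were picked by name, with results of these data known. They were found by Ensembl ID in every gene table, out of 30406 genes shared by the tables. The difference between the sorts had been seen when the genes were picked, so it is described below with no test. Lungs of C57/B6 embryos at stage E14.5 were pooled from the litters of a pair of females, dissociated and stained with antibodies to Epcam, which marks the surface of epithelium, and to the adhesion protein Icam1. The labels name no transgene, mutation or treatment for any group. Cells sorted as Epcam+ Icam+ gave 2 droplet libraries (called Epcam+ Icam+ 1 and 2 here), and cells sorted as Epcam+ gave 1 library (Epcam+). Whether each library had its own pool of lungs is not given, so the spread between the 3 libraries behind the p-values may be technical. The tests, made with edgeR, also draw on the spread of other genes. An SE or p-value is therefore not a measure of how far the libraries spread for that gene alone.

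Imprinted genes are expressed from the copy of 1 parent only. In the mouse fetus, Igf2, Dlk1 and Peg3 are read from the paternal copy and H19, Igf2r, Cdkn1c and Meg3 from the maternal copy, as is Grb10 outside the brain. Igf2 is a secreted growth factor that signals through Igf1r, while Igf2r carries it to lysosomes for breakdown and Igfbp4 binds IGFs outside the cell. Cdkn1c (p57) inhibits cyclin-dependent kinases, Grb10 is an adaptor that dampens signalling from insulin and IGF receptors, and Dlk1 is a membrane protein of the Notch ligand family found on many progenitor cells. Counts of RNA at the level of a gene do not tell the parental copies apart.

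In GRCm38 (mm10), 5 of the 10 genes lie on chromosome 7. Igf2 spans 142650766 to 142666816 and H19, a spliced RNA with no protein, spans 142575529 to 142578143, both on the minus strand, and Cdkn1c spans 143458339 to 143461050 on the same strand. Igf1r (67952827 to 68233668, plus strand) and Peg3 (6703892 to 6730431, minus strand) are also on chromosome 7. Dlk1 (109452823 to 109463336) and the non-coding RNA Meg3 (109541001 to 109571726) lie on the plus strand of chromosome 12. Igfbp4 (99041244 to 99054392, plus strand) and Grb10 (11930508 to 12038683, minus strand) are on chromosome 11, and Igf2r (12682406 to 12769664, minus strand) is on chromosome 17.

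The gene tables behind the libraries were not the same, and this touched Igf2. The Epcam+ Icam+ tables held 32285 genes, and the other held 31053. The Epcam+ table alone listed Gm49394, a protein-coding gene model on the strand of Igf2. Gm49394 shares 3596 exonic bases with Igf2, which is 62.8% of the exonic bases of Igf2, and it covers 3284 of the 3287 bases of the last exon of Igf2, where reads of a 3' assay fall. Gm49394 had 0 UMIs (unique molecules) in the Epcam+ library. A read that falls in 2 genes on its strand is not counted for either of them by Cell Ranger in its usual setting, so a lower Igf2 count in the Epcam+ library cannot be told apart from the gene table. On the strand opposite Meg3, Gm26906, a gene model listed only in the Epcam+ table, overlaps 1228 of the 13087 bases of its last exon. Cdkn1c overlaps an antisense model, Gm44732, that every table listed.

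The RefSeq promoter table (GRCm38.p6) held 8 of the 10 genes. Each entry has 250 bases before and 50 bases after an annotated start. H19 and Cdkn1c had no entry. The 4 shown here belong to the ligand, to a protein that binds it outside the cell, and to the pair of genes of 1 imprinted domain: Igf2 (chr7:142657447-142657746, minus strand, the annotated start nearest its 3' end), Igfbp4 (chr11:99040994-99041293), Dlk1 (chr12:109452573-109452872) and Meg3 (chr12:109540746-109541045), the last 3 on the plus strand. They are written 5' to 3', with CG dinucleotides, the sites of DNA methylation, in capitals.
Igf2: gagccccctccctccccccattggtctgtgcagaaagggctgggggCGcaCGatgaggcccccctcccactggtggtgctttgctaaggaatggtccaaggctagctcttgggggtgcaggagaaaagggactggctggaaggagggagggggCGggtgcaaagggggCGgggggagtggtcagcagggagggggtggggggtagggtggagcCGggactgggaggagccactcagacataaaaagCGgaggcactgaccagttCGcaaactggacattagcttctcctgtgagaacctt
Igfbp4: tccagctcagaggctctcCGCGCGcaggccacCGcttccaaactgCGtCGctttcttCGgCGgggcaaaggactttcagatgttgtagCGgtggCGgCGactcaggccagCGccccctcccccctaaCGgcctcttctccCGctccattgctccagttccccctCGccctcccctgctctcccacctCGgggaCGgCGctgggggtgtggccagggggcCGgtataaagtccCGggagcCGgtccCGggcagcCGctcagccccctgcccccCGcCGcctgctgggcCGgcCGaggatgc
Dlk1: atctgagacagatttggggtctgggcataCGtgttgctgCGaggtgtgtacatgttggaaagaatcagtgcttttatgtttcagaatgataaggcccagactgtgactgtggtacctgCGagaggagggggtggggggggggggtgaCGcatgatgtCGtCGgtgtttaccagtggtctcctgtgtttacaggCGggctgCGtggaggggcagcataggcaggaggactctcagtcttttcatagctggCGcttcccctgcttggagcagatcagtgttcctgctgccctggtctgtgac
Meg3: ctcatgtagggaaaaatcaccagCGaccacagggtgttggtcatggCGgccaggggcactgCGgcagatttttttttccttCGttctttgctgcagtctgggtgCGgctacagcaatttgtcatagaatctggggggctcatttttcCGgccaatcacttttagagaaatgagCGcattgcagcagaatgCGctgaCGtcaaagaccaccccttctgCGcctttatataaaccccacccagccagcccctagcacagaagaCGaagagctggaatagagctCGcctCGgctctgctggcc
The Igfbp4 window held 27 CG dinucleotides, a count that 15.5% of the 32851 windows of 300 bases reached. The Meg3 window held 13, reached by 37.9% of windows, the Dlk1 window 9, reached by 45.8%, and the Igf2 window 7, reached by 52.1% and equal to the median of all windows. The letters TATAAA, on either strand, were in the windows of Igfbp4 and Meg3 and in 13.6% of all windows, and not in those of Igf2 and Dlk1. Igf2 had other entries, not shown here, with 24, 14 and 2 CG dinucleotides, reached by 20.0%, 36.3% and 85.9% of windows. Meg3 had another with 1, reached by 94.6%. Counts at the 3' end do not show which start was used.

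The libraries held 74170599, 67843828 and 84460347 UMIs, and 3271, 3052 and 2902 cells were kept, in the order Epcam+ Icam+ 1, Epcam+ Icam+ 2 and Epcam+. All values of 3 libraries below follow this order. The epithelium, whose defining gene Nkx2-1 was present at 205, 208 and 220 CPM (UMIs of the gene per 1000000 UMIs of the class), made up 2129, 1909 and 2400 cells with a median of 20342, 20746 and 28169 UMIs. Clusters were named from marker genes. Distal-like cells (599, 559 and 803) carried Sox9 and Sftpc, airway-like cells (351, 320 and 427) Sox2 and Scgb3a2, alveolar type 1-like cells (849, 731 and 68) Hopx and Ager, macrophage-like cells (498, 470 and 101) C1qa and Pf4, and mesenchyme-like cells (44, 55 and 48) Col1a1 and Pdgfra. The mesenchyme-like cells, whose cluster was also led by smooth muscle genes such as Acta2, had a median of 2170 and 2249 UMIs in the Epcam+ Icam+ libraries against 19211 in the Epcam+ library. The Epcam+ library stood apart from the others in its software version and its gene table. In it 17.4% of epithelial cells were called G1, against 44.6% and 44.7%, a difference between phase calls that goes with another make-up of classes and is not read as one in cycling. Of the barcodes kept, 2 were shared between the Epcam+ Icam+ libraries and 0 with the Epcam+ library.

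**Figure D1:**
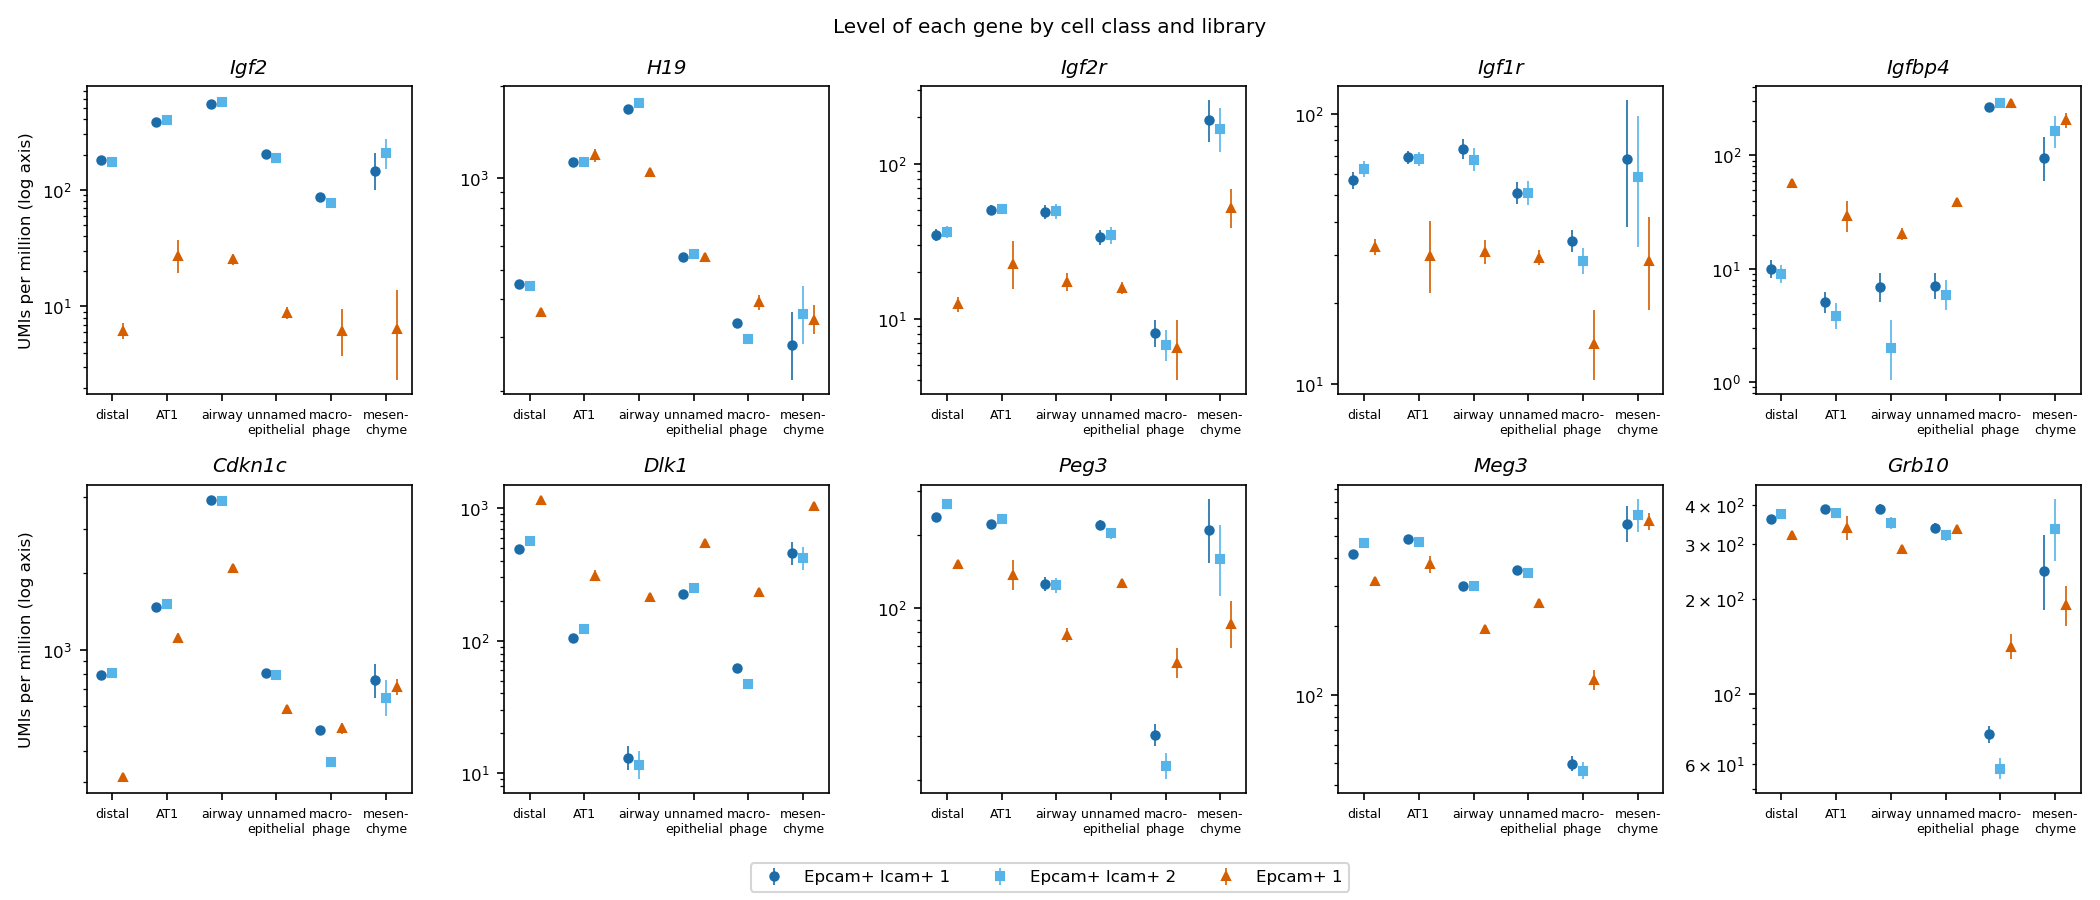
CPM (log axis) of the 10 genes in 6 cell classes, with 1 point per library and bars for exact 95% Poisson intervals, which cover counting error only. Igf2, H19 and Cdkn1c were lower in distal-like than in airway-like and alveolar type 1-like cells in every library, Dlk1 was higher there, and of the classes drawn Igfbp4 was highest in macrophage-like cells.

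The ligand Igf2 was higher in airway-like and alveolar type 1-like cells than in distal-like cells of every library. Its level in airway-like cells was 545, 568 and 25.3 CPM, in alveolar type 1-like cells 384, 396 and 27.2 CPM, and in distal-like cells 181, 172 and 6.2 CPM. The order of airway-like above alveolar type 1-like cells held for Epcam+ Icam+ 1 and 2, while for Epcam+ these classes had overlapping intervals. Macrophage-like cells had 86.9, 76.3 and 6.1 CPM and mesenchyme-like cells 146, 205 and 6.3 CPM. With libraries as a block, edgeR gave a log2 fold change of 1.62 ± 0.10 (SE, n = 3 libraries) for airway-like against distal-like cells (adjusted p = 2.18e-06) and 1.16 ± 0.12 for alveolar type 1-like against distal-like cells (adjusted p = 4.21e-05). Clusters were formed without the 10 genes, but from other genes of the same cells, so a difference between classes is not independent of the clustering.

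H19, the non-coding partner that shares enhancers with Igf2, was likewise lower in distal-like cells than in the other named epithelial classes. It was at 1692, 1770.5 and 1045 CPM in airway-like cells and at 447, 441 and 364 CPM in distal-like cells, so the groups of values did not overlap. Alveolar type 1-like cells were at 1130, 1131 and 1186 CPM. In the Epcam+ library they were above the airway-like cells, and in the other libraries they were below them. H19 was higher in airway-like than in distal-like cells by 1.69 ± 0.10 on the log2 scale (adjusted p = 1.30e-06) and in alveolar type 1-like cells by 1.38 ± 0.07 (adjusted p = 7.77e-07). In epithelium the libraries gave 2.89, 2.89 and 51.3 H19 UMIs for each Igf2 UMI. In the 6 classes drawn, this ratio lay between 1.73 and 3.87 for Epcam+ Icam+ 1 and 2 but between 41.3 and 63.65 for Epcam+, so the libraries did not overlap in any class. Since the Igf2 count enters the ratio, this gap cannot be told apart from the gene table. In the low-depth clusters without a name, whose median cell had 2809, 2628 and 2196 UMIs, the ratio in the Epcam+ library was 20.0 and Igf2 was at 397, 438 and 77.6 CPM. These clusters were unlike. A cluster of 70, 83 and 204 cells had H19 at 7850, 8910 and 4095 CPM and Igf2 at 1223, 1424 and 253 CPM. Another, of 344, 338 and 105 cells, had H19 at 701, 643 and 502 CPM and Igf2 at 295, 275 and 4.8 CPM.

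The receptors went different ways across classes. Igf1r, the signalling receptor, was at 57.0, 62.5 and 32.2 CPM in distal-like cells, at 74.3, 67.8 and 31.0 CPM in airway-like cells and at 69.1, 68.0 and 29.9 CPM in alveolar type 1-like cells. The epithelial classes of 1 library were close to each other, and neither comparison with distal-like cells passed (log2 fold changes of 0.02 ± 0.10 and 0.08 ± 0.08, adjusted p = 0.881 and 0.48). Under a stricter cell filter, however, Igf1r passed as lower in alveolar type 1-like than in distal-like cells (-0.24, adjusted p = 0.0045 by edgeR). Igf1r was lower in macrophage-like cells, with 33.9, 28.6 and 14.1 CPM (log2 fold change against epithelium -0.78 ± 0.14, adjusted p = 0.00628). Igf2r, the clearance receptor, was highest in mesenchyme-like cells among the classes drawn. It stood at 191, 168 and 51.8 CPM there and at 42.8, 43.2 and 14.98 CPM in epithelium (log2 fold change 1.86 ± 0.22, adjusted p = 1.80e-16). In alveolar type 1-like cells Igf2r was above distal-like cells by 0.47 ± 0.08 (adjusted p = 0.00132). That call was lost with each library clustered on its own (0.21, adjusted p = 0.0723), with cells thinned to 3000 UMIs (0.43, adjusted p = 0.0577), and among cells called G1 or G2/M only (0.59 and 0.25, adjusted p = 0.0971 and 0.510). Of these, the fits with each library clustered on its own and within a phase held only 2 libraries. In airway-like cells the difference was 0.34 ± 0.09 (adjusted p = 0.0138), and without Epcam+ Icam+ library 1 or 2 it was 0.35 or 0.36 and did not pass (adjusted p = 0.0858 and 0.113), nor did it in thinned cells, in either phase or by DESeq2 (adjusted p of 0.157, 0.162, 0.878 and 0.0723).

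Igfbp4, a secreted binding protein that holds IGFs away from their receptor, was the 1 gene of the 10 that was higher in macrophage-like cells than in epithelium. It was at 267, 287 and 289 CPM in macrophage-like cells and at 7.6, 6.0 and 41.9 CPM in epithelium, with no overlap between the classes. The log2 fold change was 4.78 ± 0.71 (adjusted p = 0.00406). Mesenchyme-like cells had 95.6, 163.5 and 204 CPM (3.23 ± 0.23 above epithelium, adjusted p = 8.97e-43), and the 14, 27 and 10 endothelium-like cells had 360, 448 and 729 CPM. Among the 3 named epithelial classes Igfbp4 was highest in distal-like cells, at 10.0, 9.0 and 57.2 CPM. It was lower by 1.44 ± 0.20 in airway-like cells (log2 fold change -1.44, adjusted p = 4.02e-04) and by 1.13 ± 0.12 in alveolar type 1-like cells (log2 fold change -1.13, adjusted p = 5.76e-05).

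Cdkn1c, which restrains the cell cycle, had the largest positive fold change of the 10 genes in airway-like cells. Its level was 3875, 3848 and 2089 CPM in airway-like cells, 1472, 1512 and 1113 CPM in alveolar type 1-like cells and 795, 807 and 315 CPM in distal-like cells. The same order held in each library, and each step was wider than the counting intervals. In an alveolar type 1-like cluster of 387, 309 and 60 cells, Cdkn1c was at 1169, 1116 and 969 CPM. The log2 fold changes against distal-like cells were 2.29 ± 0.11 (adjusted p = 4.81e-07) and 1.11 ± 0.14 (adjusted p = 1.70e-04). Reads of Cdkn1c and its antisense model were not examined by strand here. Grb10, the receptor adaptor, varied little over the epithelium, from 289 to 389 CPM over the 3 named classes and 3 libraries. It did not pass in airway-like (-0.18 ± 0.08, adjusted p = 0.0845) or alveolar type 1-like cells (-0.02 ± 0.06, adjusted p = 0.838), and it was lower in macrophage-like cells at 74.3, 57.8 and 141 CPM (-1.81 ± 0.24, adjusted p = 0.00284). Under a stricter cell filter Grb10 passed as lower in airway-like (-0.19, adjusted p = 0.0258) and alveolar type 1-like cells (-0.11, adjusted p = 0.0249). The airway-like difference also passed with no filter on low counts (-0.22, adjusted p = 0.0327) and without the Epcam+ library (-0.15, adjusted p = 0.0111).

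Dlk1 had the opposite pattern to Igf2, H19 and Cdkn1c in the epithelium. It was at 495, 565 and 1158 CPM in distal-like cells, at 105, 122 and 310 CPM in alveolar type 1-like cells and at 13.1, 11.6 and 212 CPM in airway-like cells. Distal-like cells were the highest and airway-like cells the lowest of these classes in every library. The log2 fold change was -4.28 ± 0.50 for airway-like (adjusted p = 1.41e-04) and -2.21 ± 0.08 for alveolar type 1-like against distal-like cells (adjusted p = 4.44e-08). Dlk1 was also high in mesenchyme-like cells, at 460, 419 and 1045 CPM. Meg3, the maternal RNA of the same locus, did not follow Dlk1. It was at 415, 463 and 318 CPM in distal-like cells and at 483, 468 and 375 CPM in alveolar type 1-like cells, a difference that did not pass (0.07 ± 0.06, adjusted p = 0.416), and at 299, 301 and 194 CPM in airway-like cells (-0.73 ± 0.08, adjusted p = 6.21e-05). Under a stricter cell filter, with finer clusters or with each library clustered on its own, Meg3 passed as lower in alveolar type 1-like cells (-0.34, -0.32 and -0.26, adjusted p = 5.34e-05, 0.0229 and 0.0152 by edgeR). For 1 Dlk1 UMI there were 0.84, 0.82 and 0.27 Meg3 UMIs in distal-like cells and 22.9, 26.0 and 0.91 in airway-like cells.

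Peg3, a zinc finger protein of a paternally expressed locus, was at 237, 266 and 152 CPM in distal-like cells and at 125, 124 and 78.1 CPM in airway-like cells (-1.12 ± 0.08, adjusted p = 5.09e-06). In alveolar type 1-like cells it was at 220, 232 and 137 CPM (-0.23 ± 0.06, adjusted p = 0.0144), a difference that did not pass without Epcam+ Icam+ library 1 or 2 (adjusted p = 0.144 and 0.231). Of the 849, 731 and 68 cells of this class, 387, 309 and 60 shared 1 cluster. In that cluster Peg3 was at 258, 275 and 146 CPM, above distal-like cells in Epcam+ Icam+ 1 and 2 and below them in Epcam+. The part of this make-up in the contrasts of the class was not tested. Of the 10 genes, 4 were higher and 4 lower in airway-like cells, where 18.9% of 12400 genes were higher and 19.8% lower (38.7% in all). In alveolar type 1-like cells 4 were higher and 3 lower, where 20.3% of 12411 genes were higher and 17.1% lower (37.3% in all). In macrophage-like cells 1 was higher and 9 lower than in epithelium (27.1% of 13748 genes were higher and 30.4% lower, 57.5% in all), and in mesenchyme-like cells 4 were higher and 5 lower (8.53% of 12936 genes were higher and 13.1% lower, 21.7% in all). A macrophage-like cluster of 62 cells came from the Epcam+ library alone, and without it H19 and Cdkn1c did not pass (adjusted p = 0.0557 and 0.0608). Without the Epcam+ library, Peg3, Meg3 and Grb10 did not pass in mesenchyme-like cells (adjusted p = 0.508, 0.108 and 0.288), nor did Peg3 without Epcam+ Icam+ library 2 (adjusted p = 0.235). The median log2 fold change of the 10 genes was -0.08 and 0.07 in the epithelial comparisons, beside 0.01 and 0.05 over all genes tested, and -1.59 and -0.31 in macrophage-like and mesenchyme-like cells, beside -0.08 and -0.16 over all genes tested.

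The imprinted genes were all lower in macrophage-like cells than in epithelium, and went both ways in mesenchyme-like cells. In macrophage-like cells H19 was at 334, 296 and 391 CPM, Cdkn1c at 481, 361 and 489 CPM, Dlk1 at 62.6, 47.2 and 233 CPM, Peg3 at 30.4, 22.7 and 59.8 CPM and Meg3 at 49.9, 46.4 and 116 CPM. Against epithelium these were log2 fold changes of -0.97 ± 0.16, -1.21 ± 0.21, -1.71 ± 0.15, -2.16 ± 0.38 and -2.25 ± 0.36, with adjusted p of 0.00524, 0.00667, 9.22e-04, 0.00651 and 0.00516 by edgeR. In mesenchyme-like cells Dlk1 and Meg3, the genes of 1 domain, were both higher than in epithelium (0.65 ± 0.14 and 0.63 ± 0.14, adjusted p = 4.02e-05 and 5.49e-05), with Meg3 at 565, 616 and 577 CPM. H19 at 282, 356 and 343 CPM was lower there (-1.32 ± 0.14, adjusted p = 8.70e-19), as were Igf2 (-0.92 ± 0.20, adjusted p = 6.08e-05) and Cdkn1c at 756, 646 and 713 CPM (-0.84 ± 0.13, adjusted p = 2.92e-09). Igf2 in mesenchyme-like cells rested on 32, 49 and 6 UMIs. It did not pass with no replicate block (-1.01, adjusted p = 0.737 by edgeR). These few cells came through an Epcam sort, and whether they stand for lung mesenchyme was not tested.

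**Figure D2:**
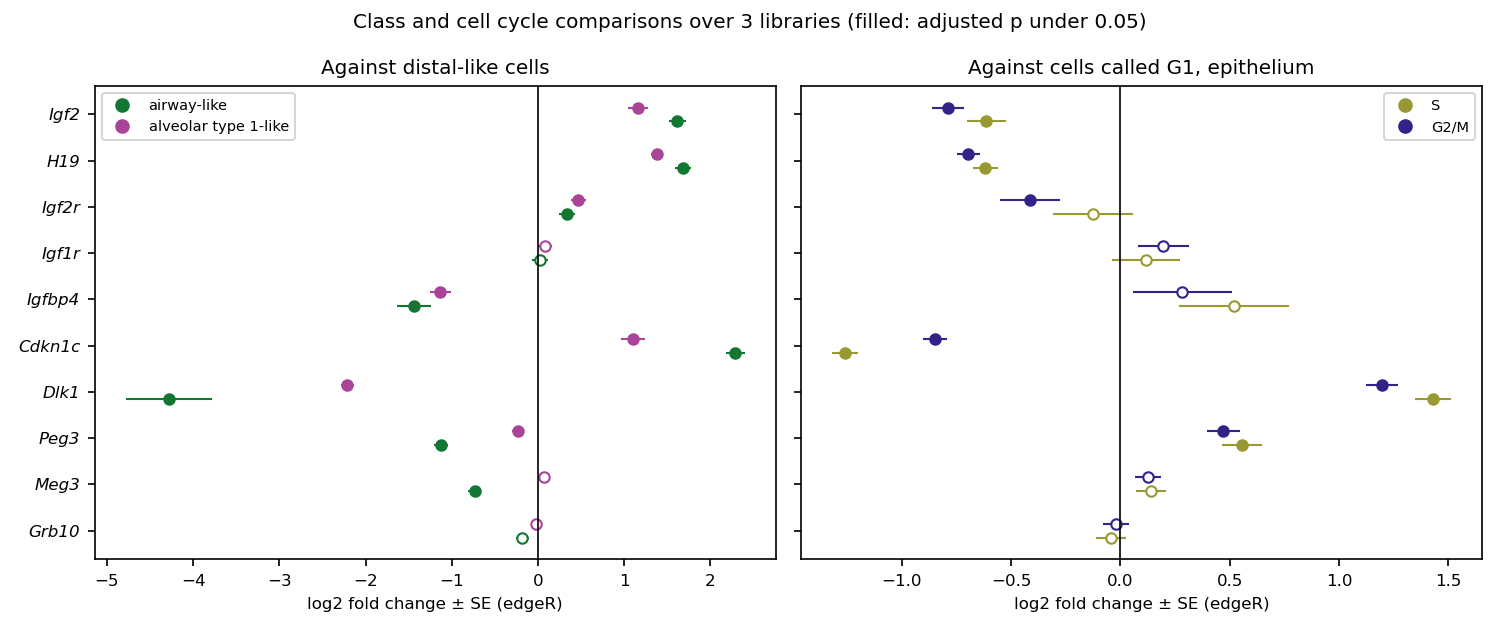
Log2 fold change with its SE from edgeR for airway-like and alveolar type 1-like against distal-like cells (left) and for cells called S or G2/M against G1 in the epithelium (right), over 3 libraries. Filled points have an adjusted p under 0.05. Cdkn1c, H19 and Igf2 lie right of 0 on the left panel and left of 0 on the right panel, and Dlk1 does the reverse.

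The cell cycle was examined within the epithelium, with cells thinned to 3000 UMIs and called by S and G2/M genes. Cdkn1c was highest in cells called G1, at 2080, 2106 and 1629 CPM, against 1022, 917 and 581 CPM in S and 1365, 1320 and 730 CPM in G2/M. The G1 value was above both others in each library. The log2 fold changes were -1.26 ± 0.06 in S (adjusted p = 1.33e-20) and -0.85 ± 0.05 in G2/M (adjusted p = 1.08e-16). H19 (-0.62 ± 0.06 and -0.69 ± 0.05, adjusted p = 8.74e-12 and 9.50e-15) and Igf2 (-0.61 ± 0.09 and -0.79 ± 0.07, adjusted p = 5.21e-07 and 5.31e-12) were also lower in S and G2/M. Dlk1 was higher, at 105, 103 and 321 CPM in G1 and 332, 332 and 732 CPM in S (1.43 ± 0.08, adjusted p = 3.37e-18, and 1.195 ± 0.07 in G2/M, adjusted p = 1.81e-17), as was Peg3 (0.56 ± 0.09 and 0.47 ± 0.08, adjusted p = 8.02e-06 and 4.64e-06). Igf2r was lower in G2/M (-0.41 ± 0.14, adjusted p = 0.0239), but did not pass without Epcam+ Icam+ library 2 (-0.36, adjusted p = 0.211) or the Epcam+ library (-0.31, adjusted p = 0.0831), and it stood at 0.01 within distal-like cells. Igf1r, Igfbp4, Meg3 and Grb10 passed in neither phase in the main fit. With unthinned counts Igfbp4 passed by edgeR in S and G2/M (0.84 and 0.54, adjusted p = 3.83e-05 and 9.68e-04). So did Meg3 (0.20 and 0.32, adjusted p = 0.00327 and 4.92e-05), which also passed without the Epcam+ library (0.25 and 0.20, adjusted p = 0.00867 and 9.81e-04). Igf1r and Grb10 passed unthinned in G2/M only (0.28 and 0.11, adjusted p = 0.00583 and 0.0417). In S, 2 of the 10 genes were higher and 3 lower (9.98% of 10202 genes were higher and 6.97% lower, 16.9% in all), and in G2/M 2 were higher and 4 lower (12.9% and 11.8% of all genes, 24.7% in all).

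Phase and class overlap, so each was examined within the other, a check chosen after these data were seen. Within distal-like cells alone, Cdkn1c remained lower in S and G2/M (-0.95 and -0.52) and Dlk1 higher (0.95 and 0.53), each past the threshold. Igf2 within distal-like cells was at -0.50 in S and did not pass (adjusted p = 0.181), and in G2/M it was at -0.55 and passed (adjusted p = 0.00242). Peg3 likewise did not pass in S within distal-like cells (0.37, adjusted p = 0.245) and passed in G2/M (0.40, adjusted p = 0.0301). H19 was lower in both phases (-0.54 and -0.29, adjusted p = 3.39e-04 and 0.0227). Meg3, which did not pass over the epithelium in the main fit, was higher in both phases within distal-like cells (0.71 and 0.45, adjusted p = 7.93e-06 and 6.72e-04). Among cells called G1 only, airway-like cells were above distal-like cells in Cdkn1c (1.92), H19 (1.93) and Igf2 (1.44) and below them in Dlk1 (-4.21), all past the threshold, while Meg3 stood at 0.05 (adjusted p = 0.821). Among cells called G2/M, the values were 2.24, 1.57, 1.31 and -3.24. In alveolar type 1-like cells the fits within a phase held 2 libraries, against 3 over all phases. The part of the library left out was not tested. Cdkn1c in alveolar type 1-like cells was above distal-like cells by 0.67 in G1 and 0.60 in G2/M, against 1.11 over all phases, and each value passed. Meg3, which did not pass over all phases there, was higher in G1 (0.42, adjusted p = 0.00277), and Peg3 passed in neither phase (adjusted p = 0.583 and 0.355).

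The sorts differed most in Igf2, Igfbp4 and Dlk1. These values are a description, since the genes were proposed with this difference known. In epithelium Igf2 was at 318, 313 and 11.4 CPM, and the 2 Epcam+ Icam+ libraries were above the Epcam+ library by 4.66 on the log2 scale after TMM scaling, a difference that cannot be told apart from the gene table. Igfbp4 was at 7.6, 6.0 and 41.9 CPM, a log2 difference of -2.76, and Dlk1 at 220, 264 and 697 CPM, a difference of -1.66. Igf2r (42.8, 43.2 and 14.98 CPM) and Igf1r (63.2, 63.3 and 30.7 CPM) differed by 1.39 and 0.91, Cdkn1c (1526, 1488 and 767 CPM) by 0.84, and Peg3, H19 and Meg3 by 0.63, 0.51 and 0.51. Grb10 differed by 0.05. The epithelium was not made up alike, with 849, 731 and 68 alveolar type 1-like cells and 325, 288 and 1071 epithelial cells in clusters without a name. The part of this make-up in the differences was not tested.

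By a rule of a log2 difference of at least 1 for each Epcam+ Icam+ library, 2 of the 10 genes were higher (Igf2 and Igf2r) and 2 lower (Igfbp4 and Dlk1) in epithelium. Of 7481 genes with a mean of at least 10 CPM, 24.1% met the rule, 14.6% or 1091 genes higher and 9.52% or 712 genes lower. Without TMM scaling they were 1295 and 460, the median of all genes moved from -0.11 to 0.02, and Igf1r met the rule too (1.04). The median of the 10 genes was 0.57. In distal-like cells Cdkn1c joined the higher genes (795, 807 and 315 CPM, log2 difference 1.29), which gave 3 higher and 2 lower against 13.1% higher and 8.06% lower, 21.2% in all, of 7218 genes. In airway-like cells Igf1r joined them instead (1.06), which again gave 3 and 2 against 15.8% higher and 8.88% lower, 24.7% in all, of 7717 genes. Dlk1 was lower by 1.18 in distal-like cells and by 4.21 in airway-like cells (log2 differences of -1.18 and -4.21). Most distal-like cells were in a cluster led by surfactant genes and Sp5 in the Epcam+ library and in a cluster led by Rem2 and Elf5 in the Epcam+ Icam+ libraries, so the class was not made up alike. The airway-like class was also made up unlike, from a cluster with 97, 97 and 370 cells and another with 254, 223 and 57. Dlk1 was at 14.8, 17.4 and 226 CPM in the first and at 12.5, 9.3 and 50.5 CPM in the second, so the gap between sorts was narrower in the second. Igf1r was at 56.4, 44.4 and 30.2 CPM in the first and at 80.3, 76.9 and 40.2 CPM in the second, a log2 difference under 1 for both Epcam+ Icam+ libraries in each cluster, so it did not meet the rule within them.

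In macrophage-like cells, 2 of the 9 genes with enough counts were higher, Igf2 (3.79) and Igf1r (1.23), and 2 lower, Dlk1 (-1.99) and Meg3 (-1.16), against 19.4% higher and 7.83% lower, 27.3% in all, of 7333 genes. Igfbp4 differed there by 0.05. Of the 101 macrophage-like cells of the Epcam+ library, 62 were in a cluster found in no other library. Without it, 39 cells stood for that library, and 1 gene was higher and 4 were lower: Igf2 (3.88), and Dlk1 (-2.79), Meg3 (-1.67), Peg3 (-1.66) and Grb10 (-1.59). Igf1r at 0.69 then no longer met the rule, H19 moved from -0.21 to -0.60, Cdkn1c from -0.13 to -0.59 and Igfbp4 to 0.58. Epithelial genes moved with these values. Epcam differed by -0.01 in epithelium, by -1.21 in macrophage-like cells and by -1.80 in them without that cluster, and its part in the result was not tested.

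**Figure D3:**
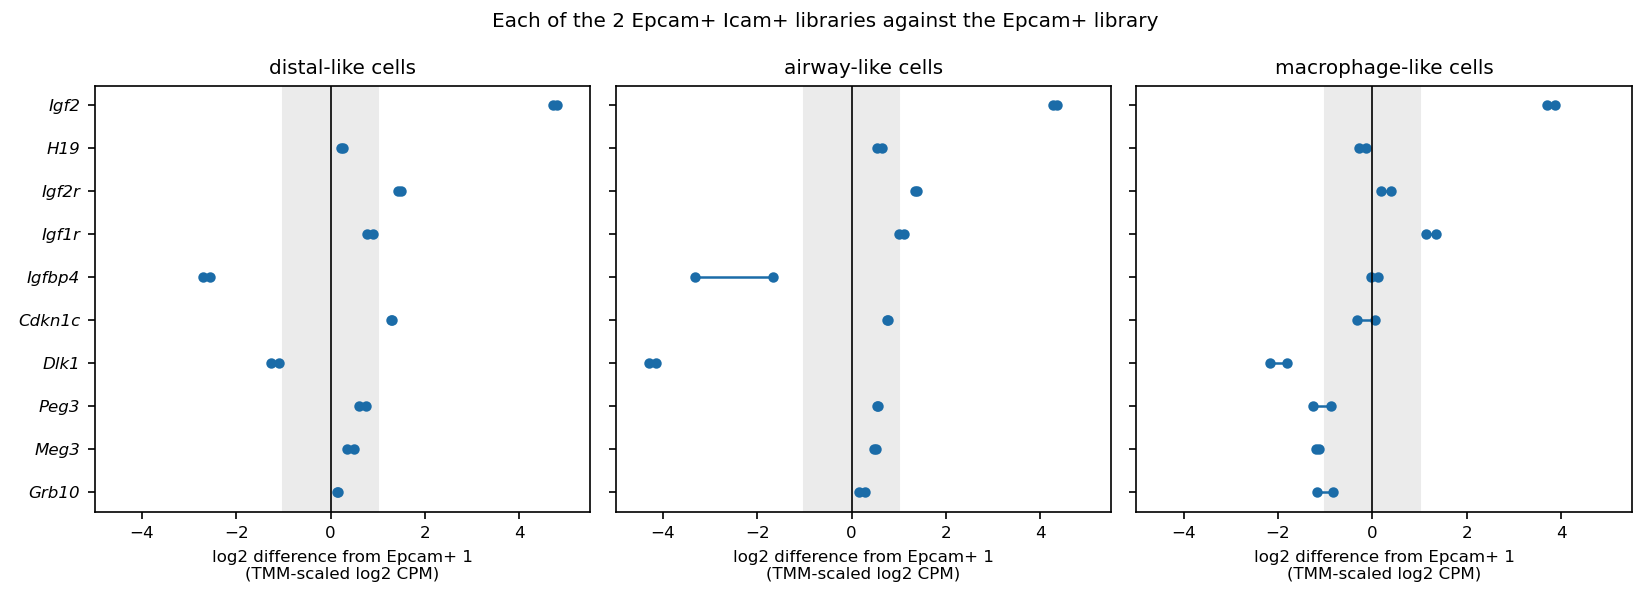
Log2 difference of each of the 2 Epcam+ Icam+ libraries from the Epcam+ library in 3 classes, as joined points, with the range from -1 to 1 in grey. Igf2 lies to the right and Dlk1 to the left of the grey band in every panel, while Igfbp4 lies left of it in the epithelial classes and at 0.05 in macrophage-like cells, or at 0.58 without the cluster found in 1 library.

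The differences between sorts were also read inside single clusters. There were 5 epithelial clusters with at least 30 cells in every library. In all 5, Dlk1 and Igfbp4 were lower and Igf2, Igf2r, Igf1r, Cdkn1c, Peg3 and Meg3 higher in both Epcam+ Icam+ libraries than in the Epcam+ library. This counts the direction of unscaled CPM only, with no minimum size. Igfbp4 was at 7.8, 1.6 and 8.2 CPM in the airway-like cluster of 254, 223 and 57 cells, the last from 8 UMIs. Meg3 was at 201, 204 and 189 CPM in the airway-like cluster of 97, 97 and 370 cells. H19 was higher in 3 and lower in 2 of them, and Grb10 was higher in 3 and mixed in 2. In the 1 distal-like cluster that met the minimum, led by Sftpa1 and Sftpb, Dlk1 was at 866, 1011 and 1447 CPM, Igfbp4 at 14.4, 12.0 and 60.7 CPM and Cdkn1c at 489, 472 and 263 CPM.

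Shares of cells with at least 1 UMI followed the levels. At 3000 UMIs per cell, Igf2 was seen in 56.7%, 55.6% and 3.8% of epithelial cells, and Dlk1 in 26.8%, 29.9% and 64.3%. The gap in the Igf2 share cannot be told apart from the gene table. Igfbp4 was seen in 1.60% (exact binomial 95% interval 1.11 to 2.23), 1.00% (0.606 to 1.56) and 11.2% (9.93 to 12.5) of epithelial cells, and in 50.2%, 58.6% and 56.1% of macrophage-like cells. Thinning left out 7, 18 and 8 epithelial cells. At full depth the epithelial shares of Igfbp4 were 11.5%, 10.2% and 58.4%, those of Igf2 96.8%, 96.8% and 22.7%, and Dlk1 was seen in 1157 of 2129, 1050 of 1909 and 2198 of 2400 epithelial cells. Thinned macrophage-like cells, which should lack Epcam, held an Epcam UMI in 24.6%, 18.9% and 55.1% of cells, with a median depth of 24753, 24105.5 and 27623 UMIs before thinning. Epcam was at 169, 137 and 380 CPM in macrophage-like cells but at 4.6, 12.6 and 43.4 CPM in mesenchyme-like cells. The part of free RNA or of doublets in the share of macrophage-like cells was not tested.

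**Figure D4:**
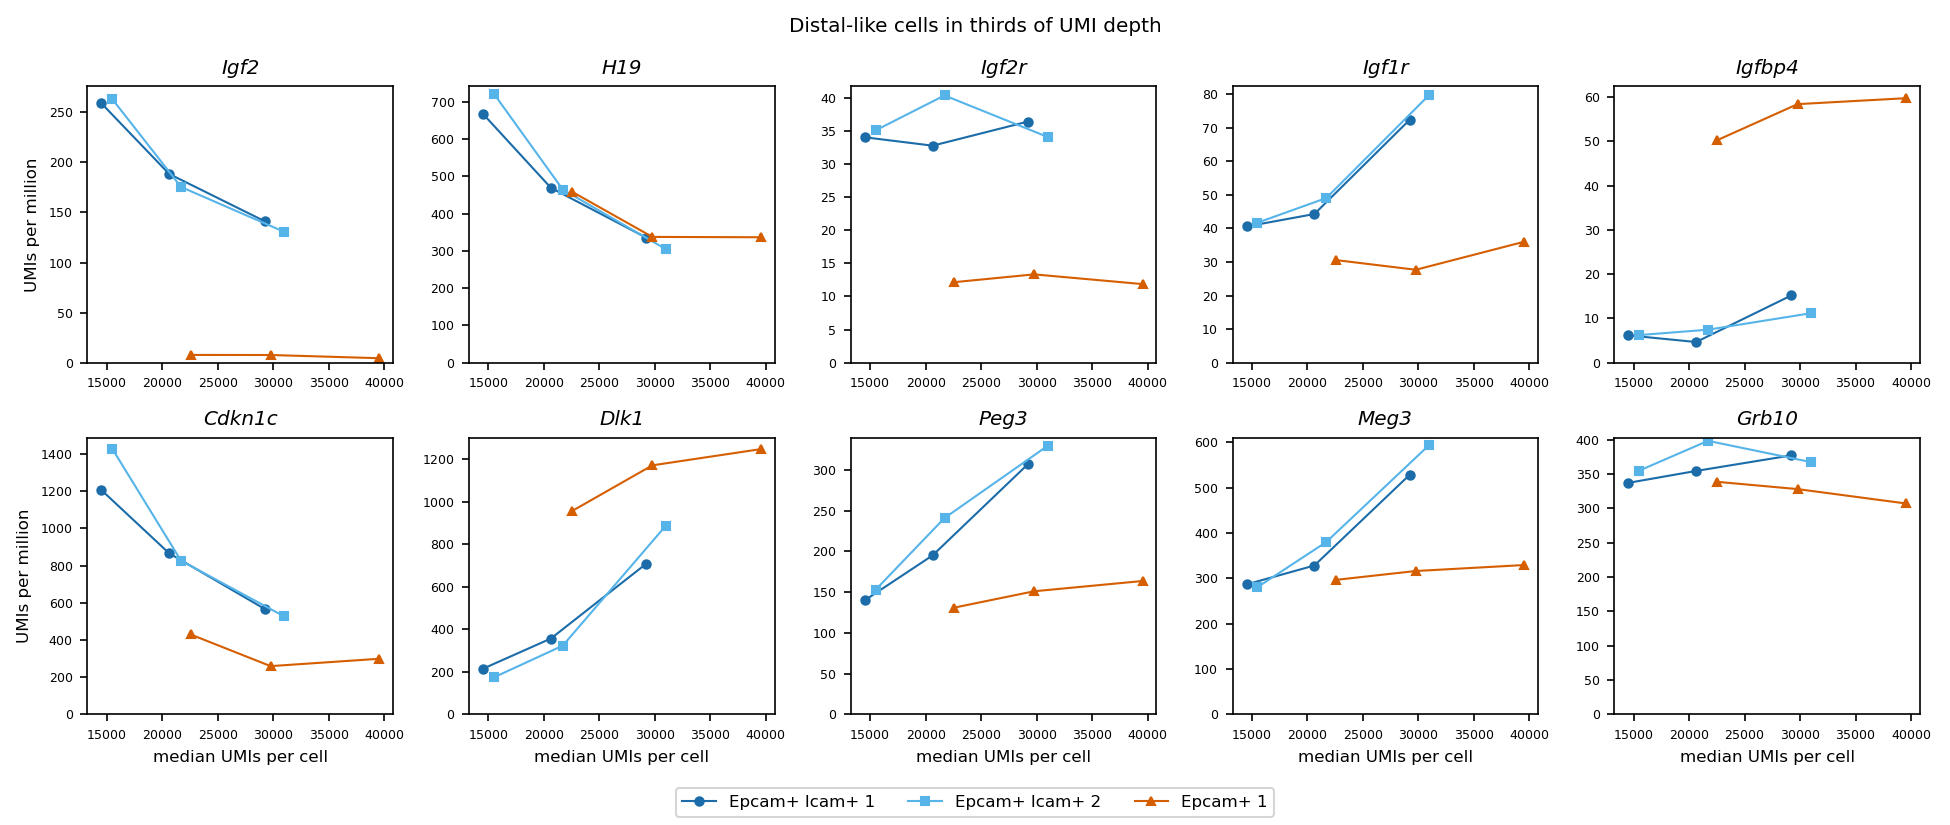
Level of the 10 genes in distal-like cells split into terciles of UMI depth within each library, against the median UMIs per cell of each tercile. In the Epcam+ Icam+ libraries Dlk1, Peg3, Meg3, Igf1r and Igfbp4 were higher and Igf2, H19 and Cdkn1c lower in the deepest than in the shallowest tercile.

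Within a library, levels of most of the genes differed between shallow and deep cells. In distal-like cells of the Epcam+ Icam+ libraries, Dlk1 was at 215 and 174 CPM in the tercile of cells with the fewest UMIs and at 708 and 887.5 CPM in the tercile with the most. Cdkn1c ran the other way, from 1207 and 1429.5 CPM down to 567 and 527 CPM, as did H19 (668 and 722 to 336 and 304 CPM) and Igf2 (259 and 263 to 141 and 131 CPM). Igfbp4 was at 6.2 and 6.2 CPM in the shallowest and 15.2 and 11.2 CPM in the deepest tercile, and Igf1r at 40.6 and 41.7 and at 72.4 and 79.9 CPM. In the Epcam+ library Dlk1 went from 957 to 1247 CPM over the same terciles. Cdkn1c (430, 259 and 299 CPM) and Igf1r (30.6, 27.7 and 36.1 CPM) did not follow the order of the terciles in that library. The part of depth in the difference between sorts was not tested. The deepest tercile of the Epcam+ Icam+ libraries had a median of 29225.5 and 30998 UMIs, near the 29774 UMIs of the middle tercile of the Epcam+ library. Dlk1 in these cells was at 708, 887.5 and 1171 CPM, Cdkn1c at 567, 527 and 259 CPM, and H19 at 336, 304 and 338 CPM. In the barcodes of 500 to 1000 UMIs left out by the cell filter, H19 was at 999, 909 and 2046 CPM, and Igf2 at 375, 401 and 162 CPM from 203, 220 and 50 UMIs.

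Levels in macrophage-like cells were set beside those of epithelial genes in the same cells. The 6 epithelial genes Epcam, Cdh1, Krt8, Krt18, Krt19 and Nkx2-1 were in macrophage-like cells at 16.1 to 21.1%, 13.2 to 20.7% and 39.6 to 53.1% of their level in epithelium, none of them at 0, and their summed level was 777, 690 and 1305 CPM. Meg3 (12.1, 11.1 and 43.5%) and Peg3 (14.46, 10.3 and 47.0%) were below that range for Epcam+ Icam+ 1 and 2 and inside it for Epcam+. Igf2r (18.9, 15.5 and 43.0%) and Grb10 (20.0, 16.0 and 43.9%) were within it in every library. H19 (36.3, 32.8 and 67.0%) and Cdkn1c (31.5, 24.2 and 63.8%) were above it in every library, and Igf2 (27.3, 24.4 and 54.0%) and Igf1r (53.5, 45.1 and 45.9%) in the Epcam+ Icam+ libraries. Igf2 in the Epcam+ library rested on 20 UMIs (6.1 CPM, exact Poisson 95% interval 3.75 to 9.48) and could not be told from the top of the range. Dlk1 (28.4, 17.9 and 33.4%) was above the range in Epcam+ Icam+ library 1, within it in library 2 and below it in the Epcam+ library. Without the cluster found in the Epcam+ library alone, the epithelial genes there were at 62.5 to 78.6% of their level in epithelium and summed to 1967 CPM. H19 (92.4%) and Cdkn1c (92.5%) were above that range, Igf2r (60.0%), Dlk1 (61.3%) and Igf2 (52.7%, from 8 UMIs) below it, and Meg3 (64.7%), Grb10 (69.3%), Igf1r (70.7%) and Peg3 (74.1%) inside it. Igfbp4 in macrophage-like cells was 3517, 4820 and 690% of its level in epithelium, and 501% for Epcam+ without that cluster. In the other direction, C1qa, C1qb and Pf4 were in epithelium at 0.38 to 0.40%, 0.18 to 0.37% and 0.28 to 0.29% of their level in macrophage-like cells, while epithelial Igfbp4 was at 2.84, 2.07 and 14.49%. The part of free RNA or of doublets in these values was not tested.

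**Figure D5:**
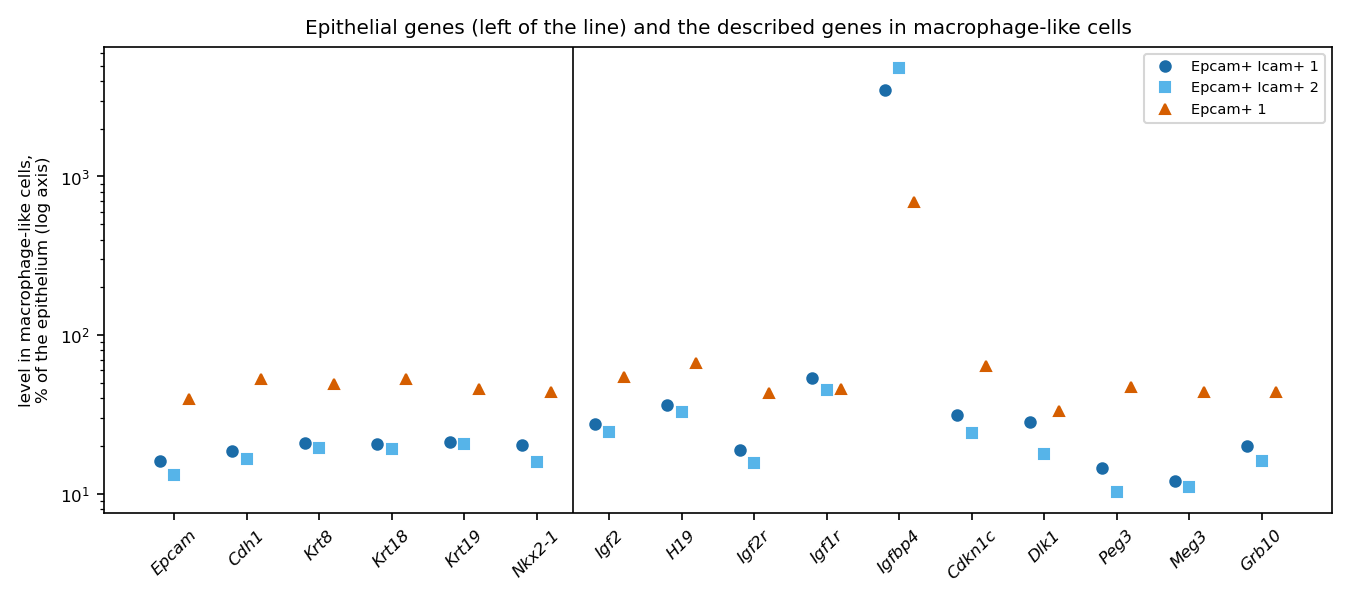
Level in macrophage-like cells as a percentage of the epithelium of the same library (log axis), for 6 epithelial genes left of the line and the 10 described genes right of it. Epithelial genes were at 13.2 to 21.1% for Epcam+ Icam+ 1 and 2 and at 39.6 to 53.1% for Epcam+, and Igfbp4 was above 100% in every library.

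Mesenchymal RNA was near 0 in the epithelium. Col1a1, Col1a2, Col3a1, Pdgfra, Tcf21 and Postn summed to 3.29, 2.77 and 1.73 CPM there, with 1 of the 6 at 0 in each library, against 2441, 2616 and 1185 CPM in mesenchyme-like cells. Of the list, every gene was at most 0.445% of its mesenchyme-like level. Dlk1 in epithelium was at 47.9, 63.0 and 66.7% of its mesenchyme-like level. Globins (6 genes) summed to 9.83, 106 and 51.0 CPM in epithelium and to 8.64, 21.2 and 49.4 CPM in macrophage-like cells.

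Other genes of the IGF axis gave further contrasts between classes. The list held 23 genes, chosen with earlier results of these data known. In macrophage-like cells 5 of 21 tested were higher and 9 lower than in epithelium, with a median log2 fold change of -0.33, beside 57.5% of all genes called. Igf1, the second ligand of Igf1r, was at 204, 219 and 85.6 CPM in macrophage-like cells and at 1.0, 1.5 and 0.4 CPM in epithelium (7.77 ± 0.15, adjusted p = 1.33e-05). Mesenchyme-like cells had Igf1 at 41.0, 239 and 75.1 CPM (6.82 ± 0.39, adjusted p = 6.78e-65), and 1 of 21 genes was higher and 4 lower there, beside 21.7% of all genes called. Igfbp2, a binding protein of the epithelium, was lower in both (-2.13 ± 0.29, adjusted p = 0.00323, and -4.04 ± 0.20, adjusted p = 3.16e-85). Igfbp5, another binding protein, was higher in airway-like cells (359, 387 and 197 CPM) than in distal-like cells (147, 149 and 51.6 CPM), by 1.40 ± 0.12 (adjusted p = 2.48e-05), and in alveolar type 1-like cells by 0.99 ± 0.13 (adjusted p = 1.95e-04). Irs2, which couples insulin and IGF receptors to downstream kinases, was higher in alveolar type 1-like cells by 0.63 ± 0.10 (adjusted p = 7.57e-04). Of 19 genes tested, 7 were higher and 2 lower in airway-like cells (median 0.07) and 8 higher and 1 lower in alveolar type 1-like cells (median 0.09), beside 38.7% and 37.3% of all genes called. In S and in G2/M, 0 of 17 genes were higher and 2 lower by edgeR, beside 16.9% and 24.7% of all genes called, and Igfbp5 was lower in both (-0.77 ± 0.10, adjusted p = 2.65e-08, and -0.86 ± 0.08, adjusted p = 4.58e-12).

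Among 29 other imprinted genes in the tables, 6 of 25 were higher and 8 lower in airway-like cells (median 0.02), 6 of 26 higher and 5 lower in alveolar type 1-like cells (median 0.04), 3 of 25 higher and 15 lower in macrophage-like cells (median -0.98) and 7 of 25 higher and 3 lower in mesenchyme-like cells (median 0.05). The shares of all genes called in these comparisons were 38.7%, 37.3%, 57.5% and 21.7%. Mest, a paternally expressed gene of mesoderm, went with Dlk1. It was at 22.4, 21.9 and 66.7 CPM in distal-like cells and at 2.6, 1.3 and 16.6 CPM in airway-like cells (-2.65 ± 0.25, adjusted p = 3.52e-05), and it was higher in S (1.04 ± 0.23, adjusted p = 7.04e-04). Plagl1, a zinc finger factor, was higher in airway-like cells (0.99 ± 0.10, adjusted p = 4.32e-05) and lower in S (-0.61 ± 0.20, adjusted p = 0.0279). Kcnq1ot1, the non-coding RNA of the Cdkn1c domain, was higher in alveolar type 1-like cells (0.74 ± 0.09, adjusted p = 1.14e-04). Nnat, a small membrane protein, was lower in macrophage-like cells (-1.83 ± 0.30, adjusted p = 0.00517) and in S and G2/M (-0.70 ± 0.07 and -0.54 ± 0.06). Impact was higher in macrophage-like cells (2.87 ± 0.28, adjusted p = 0.00124). In S 1 of 19 genes was higher and 5 lower, and in G2/M 1 was higher and 7 lower, beside 16.9% and 24.7% of all genes called.

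By the fold rule between sorts in epithelium, 4 of 14 genes of the IGF axis were higher and 1 lower (median 0.28), and 2 of 17 other imprinted genes were higher and 3 lower (median -0.04), beside 24.1% of all genes. Mest was at 11.6, 12.3 and 41.5 TMM-scaled CPM (log2 difference -1.79) and Snrpn at 21.8, 21.6 and 52.0 TMM-scaled CPM (-1.26). Irs2 at 56.8, 54.6 and 21.4 TMM-scaled CPM (1.38) and Kcnq1ot1 at 412, 412 and 162 TMM-scaled CPM (1.35) were higher. In macrophage-like cells Igf1 differed by 1.41 and Impact by 1.74, and Igfbp2 and Nnat by -2.39 and -2.07. Without the cluster found in the Epcam+ library alone the values were 2.04, 2.49, -3.02 and -2.50, and Epcam in the same cells went from -1.21 to -1.80. The part of carried-over epithelial RNA in these differences was not tested.

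The genes with the profile most like that of each of the 10 were looked up over 25 sums of a class in a library, centred within libraries, among 5154 genes. These profiles share libraries and depth and include the low-depth clusters without a name, so the values are descriptions. Igf2 and H19 were each other's nearest gene (r = 0.96). After them came Chd3 (0.93) and Trim44 (0.91) for Igf2, and Chd3 (0.89) and Fam174b (0.88) for H19. Cdkn1c was nearest to Kcnk2 (0.94), Pdcd4 (0.94) and Cbx6 (0.92), and Igfbp4 to Igf1 (0.96), Ednrb (0.96) and Nfic (0.91). The nearest gene was Mfap2 for Igf2r (0.97), Ubxn7 for Igf1r (0.92), Prxl2a for Dlk1 (0.91), Fzd2 for Peg3 (0.99), Col4a1 for Meg3 (0.98) and Mdk for Grb10 (0.99). Dlk1 and Meg3, which lie in 1 imprinted domain, had r = 0.73 between them, and Peg3 and Grb10, which are on different chromosomes, r = 0.96.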

How the data were processed

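Single cells were read by 10x 3' sequencing in 3 libraries. Each deposited matrix holds raw UMI counts by gene and by barcode. The submitters' processing notes name Cell Ranger 2.1.1 and mm10, while per the file headers the Epcam+ Icam+ tables came from version 5.0.1 and the Epcam+ table from 3.0.2. No source used here gives the authors' filter on barcodes, and the lowest total was 500 UMIs.

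Genes were joined by Ensembl ID. Barcodes with at least 1000 UMIs, 500 genes and at most 10% mitochondrial UMIs were kept, which were 3400, 3167 and 2990, and 129, 115 and 88 called doublets were removed. Cells were clustered with scanpy 1.11.5 (igraph 0.11.9, Python 3.11.15) without the 10 genes, Epcam, Icam1 and mitochondrial, ribosomal, histone and phase genes, with phase scores regressed out and genes scaled within libraries. This scheme was chosen after other schemes were seen to split cells by library. Tip and alveolar type 2 markers were merged into a distal-like class after surfactant genes led the tip clusters. The members and gene lists were chosen with earlier results of these data known. Named list genes are the 4 with the largest log2 difference among those that passed with a mean of at least 20 CPM in each comparison. The likeness search, also at a mean of at least 20 CPM, used log2(CPM + 5) over sums of at least 30 cells and left out gene models, mitochondrial and ribosomal protein genes.

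Counts were summed per class or phase and library and tested with edgeR 4.0.16 (quasi-likelihood test, TMM scaling, library as a block, Benjamini-Hochberg adjusted p under 0.05; R 4.3.3, limma 3.58.1). On simulated counts, 99% of genes changed by 0.5 on the log2 scale were recovered in the fits of macrophage-like (13839 genes) and of airway-like cells (12296 genes). The changed genes had a mean of at least 10 CPM, and every gene was given the same small spread between libraries. Several of the genes described had a far wider spread, so the share recovered is a check of the code and not the power of these fits. Between sorts no test was made, as 1 library holds the Epcam+ sort. There the rule was a log2 difference of at least 1, the same way for each Epcam+ Icam+ library, with a prior count of 2 and a mean of at least 10 CPM. Poisson and exact binomial intervals cover counting error only. Alternatives were DESeq2 1.42.0, other scalings and filters, thinning, other clusterings and each library left out. Gene models came from GENCODE vM21.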

Additional observations from a re-analysis of the deposited data

Results flagged for a closer look

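Between the sorts, 4 genes differed one way in the epithelium and the other way in macrophage-like cells for both Epcam+ Icam+ libraries, on the TMM-scaled log2 scale. The difference between the classes was not tested. Meg3 was at -1.164 in macrophage-like cells and 0.505 in epithelium, Peg3 at -1.076 and 0.627, Grb10 at -1.002 and 0.055, and H19 at -0.208 and 0.512. Of the 101 macrophage-like cells of the Epcam+ library 62 were in a cluster found in that library alone. Without it the macrophage-like values were -1.67 for Meg3, -1.66 for Peg3, -1.59 for Grb10 and -0.60 for H19, and Cdkn1c stood at -0.59, below 0 for both libraries, against 0.84 in epithelium. Epithelial genes in macrophage-like cells moved with these values, with a summed level of 777, 690 and 1305 CPM in Epcam+ Icam+ 1, Epcam+ Icam+ 2 and Epcam+ (1967 CPM for Epcam+ without that cluster), and their part in the result was not tested.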

How the results depend on the processing

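Each comparison of classes or phases was made within libraries. With no replicate block for the library, the number of the 10 genes past the threshold was 7 in macrophage-like, 1 in mesenchyme-like, 1 in airway-like and 0 in alveolar type 1-like cells, and 0 in S and G2/M. Over all genes the calls without that pairing were 3917, 1306, 137, 0 (1186 at an unadjusted p under 0.05), 164 and 176, beside 7900, 2805, 4799, 4633, 1729 and 2523 with the block. DESeq2 called 1829 genes in mesenchyme-like cells, 2733 in alveolar type 1-like cells, 905 in S and 1152 in G2/M. Cells thinned to 3000 UMIs gave 1951 calls in airway-like and 2198 in alveolar type 1-like cells. Unthinned cells gave 5155 in S and 5954 in G2/M. All 10 genes passed in G2/M but not in S, with Grb10 at 0.11 in G2/M. Without the macrophage-like cluster of 1 library 5051 genes passed. Among cells called G1, 5 of 9 members and 1242 genes passed in airway-like cells, with Meg3 at 0.055, and 1077 genes in alveolar type 1-like cells. Among cells called G2/M the counts were 894 genes in airway-like cells, and 4 of 9 members and 1377 genes in alveolar type 1-like cells. The fits of alveolar type 1-like cells within a phase held 2 libraries. Distal-like cells alone gave 388 genes in S and 711 in G2/M, with Igf2r at 0.0086. In alveolar type 1-like cells a stricter cell filter put Igf1r at -0.24 and Meg3 at -0.34, finer clusters put Meg3 at -0.32 and clustering each library on its own put it at -0.26. Each of these passed as lower than in distal-like cells (adjusted p = 0.0045, 5.34e-05, 0.0229 and 0.0152 by edgeR), the last over 2 libraries. The cause of these changes was not tested. With 1 library left out, calls over all genes ranged from 4555 to 10951 in macrophage-like, 1095 to 2223 in mesenchyme-like, 1797 to 6517 in airway-like and 1774 to 6083 in alveolar type 1-like cells, 1000 to 1493 in S and 1476 to 2506 in G2/M. Members past the threshold ranged from 10 to 10, 6 to 9, 7 to 9, 6 to 7, 5 to 6 and 5 to 6. Between sorts, no minimum level gave 4762 genes in epithelium, 3676 in distal-like, 3677 in airway-like and 4484 in macrophage-like cells, beside 1803, 1529, 1903 and 2000. Members past the fold rule were 3 in distal-like cells without doublet removal, and 3 in airway-like cells under the stricter filter and with finer clusters. A stricter filter and thinning gave no value for mesenchyme-like cells, with fewer than 30 cells in a library.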
